A study of Danio rerio with 6 samples.

Results

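Phosphodiesterase 6 (PDE6) subunit transcripts were measured in the eyes of zebrafish larvae that were wild type (WT) or homozygous for the samd7 allele stl888 (samd7-/-). The subunits were taken as every gene of the table whose name starts with pde6, which gave 5 of 14781 genes: pde6a, pde6c, pde6d, pde6g and pde6h. All 5 passed the filter on low values. A further 2 genes carry older names that RefSeq lists as synonyms of pde6ga and pde6hb, zgc:112320 and zgc:73359; they fall outside the naming rule, were singled out after their values were seen and are described separately. The rod catalytic subunit pde6b was not analysed here.

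The larvae were 5 days post fertilization and came from an intercross of samd7 heterozygotes. Each library held RNA from the eyes of 1 larva, with 3 larvae of each genotype. The mutants carry 1 allele of 1 gene, and whole eyes mix rods, cones, other retinal cells, lens and pigment epithelium. The protein encoded by samd7 is a Polycomb-group factor with a SAM domain, found in photoreceptors, and the comparison addresses its role in photoreceptor identity.

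PDE6 is the effector enzyme of phototransduction. Light-activated opsin switches on transducin, transducin lifts an inhibitory gamma subunit from the PDE6 catalytic subunits, and the freed enzyme breaks down cyclic GMP, so that cyclic GMP-gated channels close. In mammals the rod enzyme joins an alpha (PDE6A) and a beta (PDE6B) catalytic subunit with gamma subunits from PDE6G, while the cone enzyme uses a pair of PDE6C catalytic subunits with gamma subunits from PDE6H. The delta subunit, PDE6D, binds prenyl groups and carries PDE6 and other lipid-modified proteins through the photoreceptor. It is also made in many other cell types.

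The libraries held between 23185755 and 26672265 reads assigned to genes, and values are reads scaled by a size factor of each library by the authors, as mean ± SD over n = 3 larvae. Fold changes compare samd7-/- with WT as log2 of the value plus 1, each with a standard error (SE), from limma with Benjamini-Hochberg adjustment over 11959 genes and a threshold of 0.05. The fewest reads behind any member in any library were the 143 of pde6a in samd7-/- 2, a counting error of 8.36%. The targeted gene itself was higher in the mutants (1777 ± 175 in WT and 4413 ± 316 in samd7-/-). What stl888 changes in the gene is not stated in the labels, so this level is no check of the genotypes. Markers of all 13 eye, pineal, skin, blood and muscle cell types listed for the check were detected, with none at 0 in every library. All 7 rod markers fell in the fit of all 6 libraries. Their summed level, mostly the rod opsin rho, lay between 1.32 and 1.65% of normalized reads in WT and between 0.182 and 0.43% in samd7-/-. Of 7 cone markers, 2 fell (opn1mw1 and arr3a), 1 rose (arr3b) and 4 did not pass. Their sum, of which the UV opsin opn1sw1 makes up the largest part, took 7.25 to 10.5% in WT and 10.96 to 12.5% in samd7-/-, and the lens markers summed to 4.39 to 8.26% and 4.02 to 6.06%. The part of these marker shifts in the PDE6 values was not tested. In whole eyes, fewer cells of a type and less RNA per cell cannot be told apart.

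Of the 5 subunits, 1 fell (pde6g), 0 rose and 4 did not pass. Over all genes tested, 0.259% fell and 0.0418% rose. At an unadjusted p under 0.05, 3 members were lower (pde6a, pde6g and pde6h), as were 3.25% of all genes tested, and 1 was higher (pde6c), as were 3.08% of all genes. All 3 mutants lay below all 3 WT larvae for the first 3 of these members, as for 6.39% of all genes, and above them for pde6c, as for 6.66%. The median log2 fold change was −1.02 over the 5 members and 0.00082 over all genes tested. edgeR on recovered whole reads called the same member, pde6g, and 0.25% of all genes lower. DESeq2 called 3 members lower (pde6a, pde6g and pde6h), with 0.498% of all genes lower, and so did the authors' deposited table. The deposited values matched this DESeq2 fit within 0.001 for 99.98% of 13846 genes, so they are not a separate result.

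**Figure D1:**
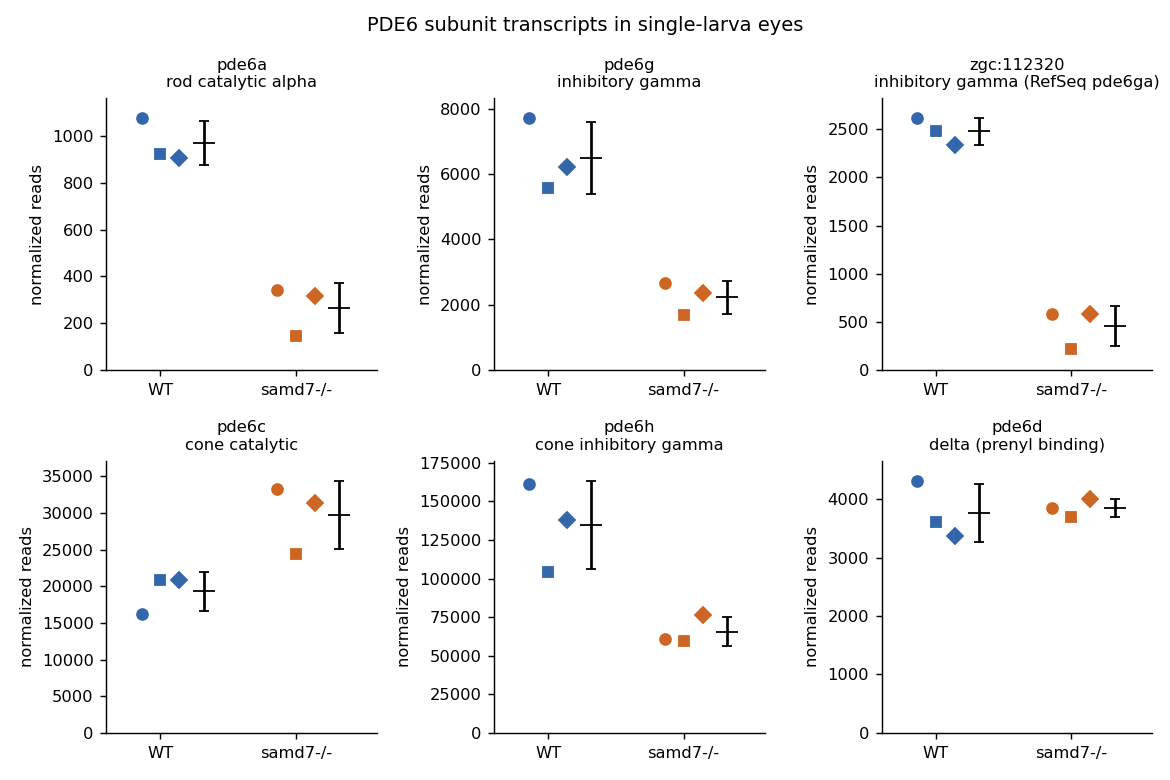
Normalized reads of each PDE6 subunit gene and of zgc:112320 in every library (y axis, from 0), with WT in blue and samd7-/- in orange. Circles, squares and diamonds are larvae 1, 2 and 3 of a genotype, which are not paired, and the bar is the mean with its SD. In pde6a, pde6g, zgc:112320 and pde6h the samd7-/- larvae all lie below the WT larvae, in pde6c all above, and in pde6d the genotypes overlap.

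The rod catalytic subunit gene pde6a stood at 1075, 923 and 905 normalized reads in the WT larvae and 340, 145 and 315 in the samd7-/- larvae. Every mutant was below every WT larva, and samd7-/- 2 was the lowest of the 6. The mean was 968 ± 93.5 in WT and 267 ± 106 in samd7-/-, or 27.5% of the WT mean. With a log2 fold change of −1.95 (SE 0.30, 95% interval −2.64 to −1.25), it missed the threshold in limma (adjusted p = 0.055) and in edgeR (adjusted p = 0.0578). DESeq2 called it (adjusted p = 4.25e-08). With samd7-/- 2 left out it passed in limma as well, at a log2 fold change of −1.56 (adjusted p = 0.00962). With any other library left out its adjusted p lay between 0.0734 and 0.249. In samd7-/- 2 the summed rod markers, mostly rho, took 0.182% of normalized reads, against 0.43% and 0.424% in samd7-/- 1 and samd7-/- 3. This library also differed from samd7-/- 1 and samd7-/- 3 in markers of other tissues. Pigment epithelium markers took 0.546% against 0.248 and 0.171%, and blood markers 0.0497% against 0.0229 and 0.0231%. Muscle markers were lower, at 0.0531% against 0.0953 and 0.153%. Whether the low pde6a of samd7-/- 2 follows from any of these marker values was not tested.

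The gamma subunit gene pde6g was the member that fell. RefSeq lists its name as a synonym of pde6gb. It held 7714, 5571 and 6206 normalized reads in WT against 2657, 1675 and 2372 in the mutants. The genotypes were far apart, with the lowest WT larva above the highest mutant by more than the whole range of the mutants. The mean was 6497 ± 1101 in WT and 2235 ± 505 in samd7-/-, or 34.4% of WT (log2 −1.55, SE 0.19, adjusted p = 0.0202; edgeR adjusted p = 0.031). The call was lost without WT 1 (adjusted p = 0.108), WT 2 (0.0557), WT 3 (0.119) or samd7-/- 3 (0.069). It was kept without samd7-/- 1 (0.0365) and samd7-/- 2 (0.0267). The log2 fold change lay between −1.69 and −1.36 in these 6 fits.

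A second gamma subunit gene is listed as zgc:112320, a RefSeq synonym of pde6ga. It held 2612, 2484 and 2337 normalized reads in WT and 579, 217 and 584 in samd7-/-. The WT larvae were close to each other, and samd7-/- 2 was again the lowest library. The mean fell from 2477 ± 138 to 460 ± 210, or 18.6% of WT (log2 −2.56, SE 0.35, adjusted p = 0.0326 in limma and 0.0337 in edgeR). The call was lost without WT 1 (adjusted p = 0.172), WT 2 (0.125) or WT 3 (0.175) and kept without each of the mutants, with log2 fold changes from −2.80 to −2.09. The genes pde6g and zgc:112320 encode related proteins. Whether reads of one gene were assigned to the other was not examined, so the split of reads between them may be inexact.

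Reads of the gamma subunit genes pde6g and zgc:112320 stood in different proportions in the larvae of the genotypes. The ratios given here were chosen after the values were seen. Reads of zgc:112320 were 33.9, 44.6 and 37.6% of the pde6g reads in WT and 21.8, 13.0 and 24.6% in samd7-/-. The ratio was lower in all 3 mutants than in any WT larva (log2 −1.01, exact permutation p = 0.1, two-sided, which is the lowest value possible with 3 larvae a genotype). With 1 library left out the log2 difference lay between −1.19 and −0.73. Relative to pde6a, zgc:112320 was also lower in all 3 mutants, at 257 ± 13.2% of pde6a reads in WT and 169 ± 17.6% in the mutants (exact permutation p = 0.1).

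The cone gamma subunit gene is pde6h, which RefSeq lists as a synonym of pde6ha. It held 161494, 104392 and 138052 normalized reads in WT against 60884, 59255 and 76614 in the mutants. Each mutant was below the lowest WT larva, WT 2, and the WT larvae varied more than the mutants (21.3% and 14.6% of the mean). The mean was 134646 ± 28703 in WT and 65584 ± 9587 in samd7-/-, or 48.7% of WT. The log2 fold change of −1.02 (SE 0.20, 95% interval −1.48 to −0.57) did not pass in limma (adjusted p = 0.163) or edgeR (0.121) but passed in DESeq2 (3.23e-05). It was −0.65 with quantile normalization (adjusted p = 0.601). The remaining gamma subunit gene, zgc:73359, a RefSeq synonym of pde6hb, was listed at 0 in all 6 libraries, as were 935 of the 14781 genes. Whether its reads were assigned to pde6h or lost was not examined, so the 0 does not show that zgc:73359 was silent.

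The cone catalytic subunit gene pde6c, whose loss in zebrafish is known to make cones degenerate, stood on the other side. It held 16228, 20849 and 20835 normalized reads in WT against 33353, 24457 and 31388 in the mutants. All 3 mutants were above all 3 WT larvae, with samd7-/- 2 nearest to WT and WT 1 the lowest of all. The mean was 19304 ± 2664 in WT and 29733 ± 4673 in samd7-/-, or 154% of WT (log2 0.62, SE 0.16, 95% interval 0.25 to 0.99). It did not pass in limma (adjusted p = 0.523), edgeR (0.455) or DESeq2 (0.0585).

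The delta subunit gene pde6d held 4313, 3613 and 3368 normalized reads in WT and 3856, 3686 and 4000 in samd7-/-. The mutants lay inside the range of the WT larvae. Its log2 fold change was 0.038 (SE 0.12, 95% interval −0.24 to 0.32, adjusted p = 0.965), an interval that does not reach the fold of any of the other 4 members. It does overlap the interval of pde6c, 0.25 to 0.99, and the difference between members was not tested.

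**Figure D2:**
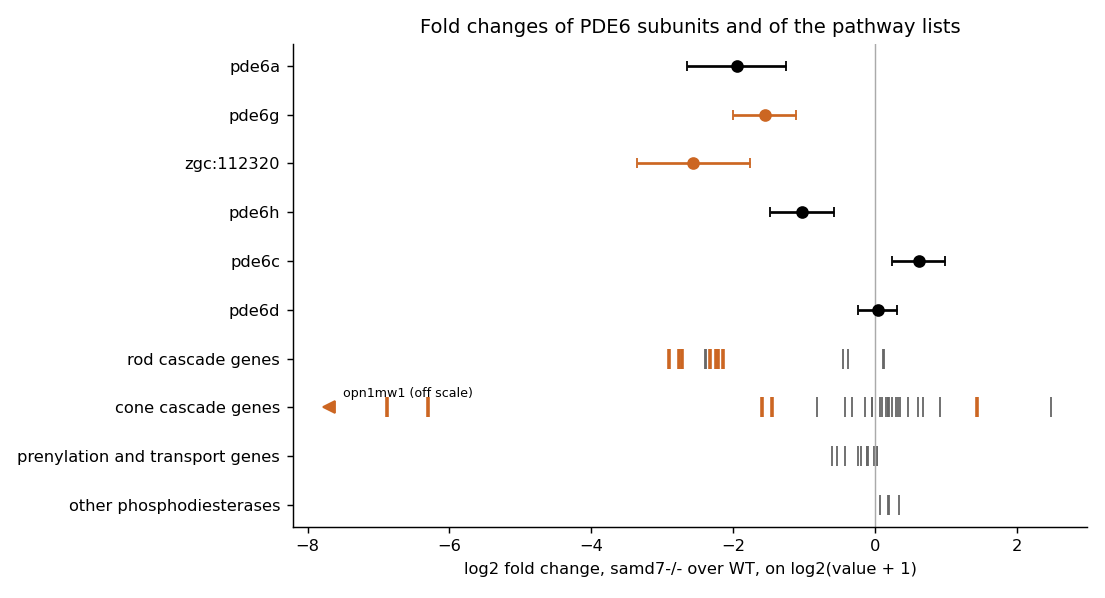
Log2 fold change, samd7-/- over WT, of the 5 PDE6 genes and zgc:112320 with 95% intervals (points and bars) and of each tested gene of 4 pathway lists (ticks), with limma calls at an adjusted p under 0.05 in orange. Of the 13 rod cascade ticks, 9 lie near the values of pde6a and zgc:112320 and 4 (gnb1a, gnb1b, rcvrna and rgs9a) lie between −0.45 and 0.13, the cone cascade ticks spread on both sides of 0, and the green opsin opn1mw1, at −17.37, lies beyond the axis.

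Within the cone pair, the inhibitory gene was lower relative to the catalytic gene in the mutants. Reads of pde6h amounted to 995, 501 and 663% of the pde6c reads in WT and 183, 242 and 244% in samd7-/-. The lowest WT ratio was above the highest mutant ratio (log2 −1.64, exact permutation p = 0.1, two-sided, the smallest possible). With pde6h lower and pde6c higher in all 3 mutants, this order was fixed by the values of the genes themselves. Relative to gnat2, the alpha subunit of cone transducin, pde6h was lower in all 3 mutants (132 ± 25.0% of gnat2 reads in WT and 54.2 ± 7.66% in the mutants, log2 −1.27). pde6c was higher, at 19.1 ± 4.04% and 24.4 ± 0.907% of gnat2 reads (log2 0.37, and 0.19 without WT 1; exact permutation p = 0.1 for both genes). Another reference in place of gnat2 was the median log2 level of the cone cascade list in each library. Against it the difference was −0.70 for pde6h and 0.94 for pde6c (exact permutation p = 0.1 for each). The genes in the middle of the list differed between the genotypes, so this reference is not fixed. The median log2 fold change of the list was 0.13. gnat2 itself did not pass (102203 ± 8958 and 121659 ± 14936, adjusted p = 0.82).

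Relative to gnat1, the alpha subunit of rod transducin, pde6a and pde6g were higher in the mutants. Reads of pde6a were 3.87, 3.62 and 4.16% of gnat1 reads in WT and 4.98, 5.44 and 4.74% in samd7-/- (log2 0.38). Reads of pde6g were 26.0 ± 3.63% and 45.8 ± 14.9% of gnat1 reads (log2 0.78), with the highest ratio, 63.0%, in samd7-/- 2. Both ratios were higher in all 3 mutants than in any WT larva. Another reference in place of gnat1 was the median log2 level of the rod cascade list in each library. Against it the difference was −0.25 for pde6a (exact permutation p = 0.2) and 0.15 for pde6g (exact permutation p = 0.6). The gene in the middle of the list differed between the genotypes, so this reference is not a fixed gene. The median log2 fold change of the list was −2.24, against −1.95 for pde6a and −1.55 for pde6g. Reads of pde6g were 669 ± 58.7% of pde6a reads in WT and 898 ± 227% in samd7-/- (log2 0.40, and 0.20 without samd7-/- 2). For zgc:112320 the share of gnat1 reads, chosen after the values were seen, was 9.96 ± 0.694% and 8.48 ± 0.303% (log2 −0.23). Over the 6 planned ratios every exact permutation p was 0.1, also after Benjamini-Hochberg adjustment, so none could pass.

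**Figure D3:**
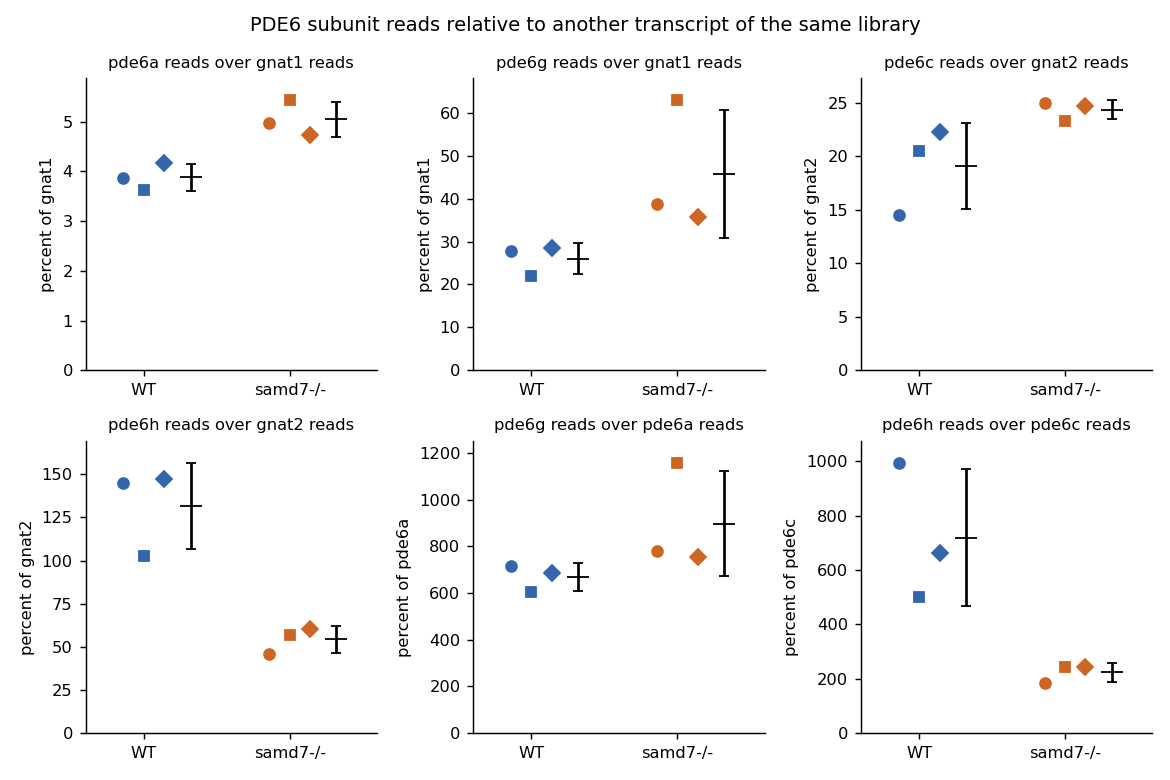
Reads of a PDE6 gene as a percent of another gene's reads in the same library (y axis, from 0), with WT in blue and samd7-/- in orange, larvae 1, 2 and 3 as circles, squares and diamonds, and mean with SD. The samd7-/- larvae lie below all WT larvae for pde6h over gnat2 and pde6h over pde6c, and above them in the other 4 panels.

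The makeup of the subunit reads differed between the genotypes. Reads are not corrected for transcript length. The sums, ratios and shares given here are therefore of reads, depend on the lengths of the genes and are not proportions of subunits. The sum of the catalytic genes pde6a and pde6c was 1.48 times as high in samd7-/-, at 20272 ± 2571 in WT and 29999 ± 4779 in samd7-/-. The sum of the inhibitory genes pde6g and pde6h went from 141143 ± 29745 to 67819 ± 9758, or 0.48 times. Most of the catalytic sum was pde6c, with pde6b not part of it, and most of the inhibitory sum was pde6h. The ratio of inhibitory to catalytic reads was 9.78, 5.05 and 6.64 in WT against 1.89, 2.48 and 2.49 in samd7-/-, and with zgc:112320 added the means were 7.28 and 2.30. Without zgc:112320 the log2 difference of this ratio was −1.61, which largely repeats the −1.64 of pde6h over pde6c. The share of pde6a in catalytic reads was 4.87 ± 1.16% in WT and 0.864 ± 0.239% in samd7-/-, and that of pde6g in inhibitory reads 4.64 ± 0.389% and 3.31 ± 0.764%. The genotypes did not overlap in any of these sums, ratios and shares (each with an exact permutation p = 0.1, the floor of this design). For the inhibitory sum and the pde6a share this follows from the separation of the genes themselves. The other values rest on the same genes, so none is further support. These sums, ratios and shares belong to 10 such values chosen after the members' values were seen.

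The genes whose values followed a subunit most closely over the 6 libraries were different for each subunit, except that ifi30 was near both pde6g and pde6h. Likeness was the root mean square difference in log2 values, each gene centred on its own mean, among 9410 genes. Genes with a clone name, such as zgc:112320 and si:dkey-22i16.2, and the other members were left out of these. The centring spans both genotypes, so likeness covers the difference between genotypes as well as that among larvae of a genotype. Nearest to pde6a were rho, the rod opsin (0.16), pdca, which encodes phosducin (0.17), and gnat1 (0.21). Nearest to pde6g were guca1a, a guanylate cyclase activator (0.15), nr2e3, a rod transcription factor (0.16), and ifi30 (0.24). Nearest to pde6h were fbxo32 (0.18), ifi30 (0.19) and f10 (0.21). Nearest to pde6c were camkvb (0.068), pcsk2 (0.088) and ca8 (0.099), each with a fold change that did not pass (adjusted p from 0.67 to 0.791). Nearest to pde6d were anp32a (0.022), arpc4 (0.023) and ddah2 (0.029). Among the members themselves, pde6a and pde6g were the closest pair (0.29), pde6g and pde6h the next (0.33), and pde6a and pde6c the farthest apart (1.32).

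Of the genes listed as acting with the rod enzyme, 7 of 13 tested fell, 0 rose and 6 did not pass. Over all genes tested, 0.259% fell. The median log2 fold change of the list was −2.24. In the list edgeR also called 7 lower and DESeq2 9, with 0 higher in either. The 4 with the smallest p were the rod arrestins sagb (log2 −2.77, adjusted p = 0.0102) and saga (−2.90, 0.0202), the rod opsin kinase grk1a (−2.21, 0.0332), and si:dkey-22i16.2 (−2.72, 0.0332). RefSeq lists the last as cnga1a, a subunit of the cyclic GMP-gated channel that PDE6 controls. The rod list held 0 calls without WT 1, WT 2 or WT 3, and 3, 6 and 2 calls with the mutants 1, 2 and 3 left out in turn. The fold of pde6a was smaller than that of each of the 7 genes that fell in limma, and pde6g smaller still, while zgc:112320 lay among them. These 7 were picked by the same test. Of the 6 that did not pass, guca1b (−2.40) and gucy2f (−2.38) had larger folds than pde6a. The folds of gnb1a (−0.45), gnb1b (−0.38), rcvrna (0.12) and rgs9a (0.13) were smaller. These differences were not tested.

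Of 28 tested genes listed for the cone cascade, opsins included, 5 fell, 1 rose and 22 did not pass. The median log2 fold change was 0.13. edgeR gave the same counts, while DESeq2 called 6 lower and 3 higher. Over all genes tested, 0.259% fell and 0.0418% rose in limma. At an unadjusted p under 0.05 in limma, 6 listed genes were lower and 6 higher, against 3.25% and 3.08% of all genes. Which cells express the listed genes, with guca1a and rgs9b among those that fell, was not examined in these whole eyes. The 4 with the smallest p were the green opsins opn1mw1 and opn1mw2 (−6.30), the arrestin arr3a (−6.88) and guca1a (−1.45, adjusted p = 0.0102). Normalized reads of opn1mw1 went from 315528 ± 90027 to 0.989 ± 0.978. The list held 2 calls without any 1 WT library, fits in which opn1mw1 is not tested, and 4, 5 and 6 without samd7-/- 1, 2 and 3. The fold of pde6h, −1.02, was smaller than that of each of the 5 that fell in limma. It was larger than that of any other lower gene tested in this list. Above the 0.62 of pde6c lay opn1lw1 (2.49), arr3b (1.44), opn1sw2 (0.92) and opn1sw1 (0.68), of which only arr3b passed in limma. The other tested genes of the list lay below pde6c. These differences were not tested.

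None of the genes listed for prenylation and for transport of outer segment proteins passed. Of 11 tested, 0 rose and 0 fell in limma, edgeR and DESeq2. At an unadjusted p under 0.05 in limma, 2 were lower (arl3l2 and rd3), as were 3.25% of all genes tested. The latter is known for trafficking and inhibiting guanylate cyclase and not for acting on PDE6. The median log2 fold change was −0.12, with 9 negative and 2 positive. The highest mean was that of arl3l1, an Arl3-like small GTPase, at 14354 ± 1249 and 12150 ± 787 (log2 −0.24, adjusted p = 0.791). The chaperone genes aipl1a and aipl1b were not analysed here. Of 4 other cyclic nucleotide phosphodiesterases tested (pde5ab, pde7a, pde8a and pde10a), 0 passed with any of the 3 tools and 0 had an unadjusted p under 0.05. The one with the highest mean, pde7a, held 587 ± 118.9 and 660 ± 31.7 normalized reads (log2 0.19, adjusted p = 0.858).

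**Figure D4:**
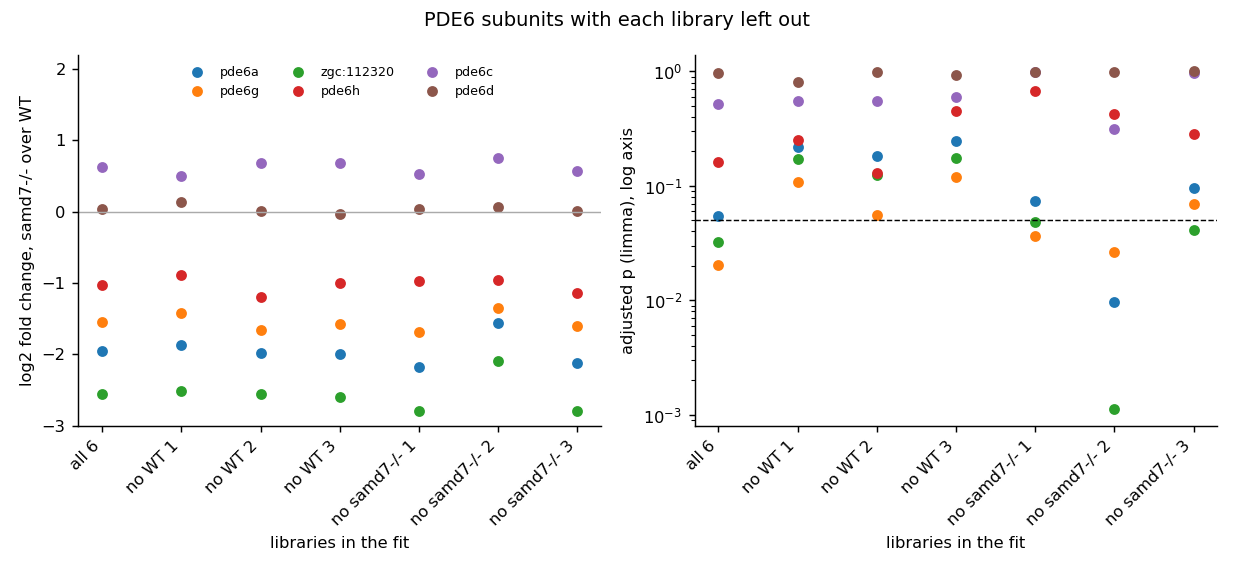
Log2 fold change, samd7-/- over WT (left), and limma adjusted p on a log axis (right) of each PDE6 gene and zgc:112320 with all 6 libraries and with each left out; the dashed line marks 0.05. The fold changes keep their order, with pde6d at 0.14 to −0.038, while pde6g passes in 3 of the 7 fits, zgc:112320 in 4 and pde6a in 1.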

How the data were processed

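RNA was sequenced from the eyes of 6 larvae, 3 WT and 3 samd7-/-. Per the labels' protocols, 10 ng of total RNA went into SMARTer Ultra Low cDNA with 12 cycles and a library with 12 more, sequenced as paired 150 bp reads. The kit keeps no strand information, so reads of overlapping genes are not separated. Per the submitters' processing notes, the build was danRer10 and the tools R 4.1.3, DESeq2 1.34.0, HTSeq 0.9.1, STAR 2.7.2b and Trim Galore 0.6.1. The gene models are not given in the sources used here. Each signal value the authors deposited is, from its values, the reads of a gene scaled by a size factor of the library. The deposited log2 fold change and adjusted p-value, whose names in the header are those of DESeq2, served as an alternative only.

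All values (100%) were whole multiples of the value of 1 read within 0.001 in each library, so reads were recovered. For samd7-/- 2 that value, 1.01, is so near 1 that the recovery rests on the multiples alone. On them DESeq2 1.42.0 and edgeR 4.0.16 (quasi-likelihood, 11985 genes) were run. Genotypes were compared mainly with limma-trend (limma 3.58.1, R 4.3.3; two-sided, log2(value + 1), no covariate, genes at 10 or more in 3 or more libraries). The pseudocount makes fold changes of low genes too small. The tests were checked on simulated data with 200 changed genes. There limma recovered 48% of the 2-fold and 100% of the 4-fold changes, with 11 calls outside the changed genes. For 2-fold changes edgeR recovered 51% and DESeq2 54%. Calls outside the changed genes numbered 10 with edgeR and 19 with DESeq2. Every simulated gene was given the same spread between larvae beyond counting, and low genes were left out of the changed ones. Genes of these data differ in spread, so the recovered shares are not the power for any member. Reads have no molecular identifiers, so counting errors cover counting only. Libraries differed by more than sampling noise in every pair (chi-square per degree of freedom 42.9 to 190).

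The members, lists and tests were chosen with earlier results of these data known. Of 79 symbols in the 4 lists, 61 were matched, 8 of them through RefSeq synonyms (GRCz12tu). Named genes were all members, samd7, gnat1, gnat2, the 3 genes most like each member (mean of at least 50), and per list up to 4 called genes with the smallest p or else the one with the highest mean; others were chosen after their values were seen. No lengths were at hand, so levels per coding length were not computed, and no sequences are printed.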

Additional observations from a re-analysis of the deposited data

How the results depend on the processing

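The count of PDE6 members called, 1 with all libraries, was 3 with DESeq2 and in the authors' deposited table, 2 with quantile normalization (pde6a at adjusted p = 0.05) and 0 to 2 with 1 library left out. It stayed at 1 with edgeR, TMM factors, no filter, a minimum of 50, and pseudocounts of 0.5 and 10. The count over all genes, 36, was 90 with DESeq2 and in the authors' deposited table and 6 to 27 with 1 library left out, where fewer samples enter the fit. The filter still asked for 3 libraries there. Called genes near or at 0 in the mutants, such as opn1mw1 and ndufs8b, were therefore not tested when a WT library was left out. With the replicate number as a block, 2 members were called (pde6a at adjusted p = 0.0313 and pde6g at 0.00563) and 33 genes in all. The numbers only name the larvae: same-numbered libraries deviated together with correlations of 0.029, 0.18 and −0.0024, and not every library correlated best with its own number. The fold change of pde6a lay between −2.17 and −1.56 and that of pde6h between −1.20 and −0.65 over all alternatives. That of pde6d turned, from −0.038 to 0.14 with 1 library left out. With the median level of the rod list in place of gnat1, the pde6a difference was −0.25. With that of the cone list in place of gnat2, the pde6c and pde6h differences were 0.94 and −0.70. The genes in the middle of each list differed between the genotypes, and how far this moved the values was not tested. With 3 larvae a genotype, pde6c did not pass in limma, edgeR or DESeq2. pde6h did not pass in limma or edgeR but passed in DESeq2 (adjusted p = 3.23e-05). Not passing does not show that a gene was level.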
